A study of Mus musculus with 6 samples.

Results

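The FoxO transcription factors are the forkhead proteins of class O, and the mouse genome encodes 4 of them, Foxo1, Foxo3, Foxo4 and Foxo6. The members were the rows of the deposited table with these gene names. All 4 were found among the 55356 genes listed, and all 4 were among the 16645 genes that passed the filter on low values. RNA was poly(A)-selected and sequenced from C2C12 myotubes, the multinucleate cells formed by a mouse myoblast line, and each gene's level is given as a normalized count. One group comprised 3 libraries from cultures kept for 24 h with 20 µM sorafenib, an inhibitor of several protein kinases used against cancer. The other comprised 3 libraries from control cultures kept for 24 h with 0.1% DMSO. The series' design text speaks of 3 independent experiments, without saying which libraries shared one. All cultures were of this 1 cell line, and no gene was altered in either group.

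FoxO proteins bind DNA through the forkhead domain and switch on genes of protein breakdown, autophagy, cell cycle arrest, cell death and defence against oxidants. Insulin and IGF-1 restrain them: the kinase AKT phosphorylates FoxO proteins, which are then held in the cytoplasm by 14-3-3 proteins. In skeletal muscle, FoxO1 and FoxO3 are best known for driving the ubiquitin ligase genes Fbxo32 and Trim63 during atrophy. This control acts on the protein, so messenger RNA levels do not give the activity of the factors.

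The messenger RNA of 3 FoxO genes was lower with sorafenib, and that of the other was higher. Foxo6 fell 3.94-fold, Foxo1 fell 2.29-fold and Foxo4 fell 1.63-fold, while Foxo3 rose 1.35-fold. The 3 libraries of each group did not overlap for any of the 4 genes. All 4 genes were called by limma at the adjusted p threshold of 0.05, but so were 76.6% of all genes tested, with 38.8% higher and 37.8% lower. Groups did not overlap for 79.5% of genes tested, 40.1% being higher and 39.4% lower. The calls alone therefore say little about these genes, and the sizes and the differences among the members are given below.

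Foxo6, which in mouse is known mainly from the brain, had 3601, 3353 and 3509 normalized counts in the DMSO libraries. In the sorafenib libraries it had 762, 954 and 943. Every sorafenib library was far below every DMSO library, and sorafenib replicate 1 was the lowest. The means were 3488 ± 125 and 886 ± 108 (SD, n = 3 each), and the log2 change was −1.98 ± 0.09 (SE, limma adjusted p = 7.64e-08). Of all genes tested, 7.30% had a change as low or lower. The gene (ENSMUSG00000052135.9) lies on chromosome 4, at 120267079 to 120287349 on the minus strand of GRCm38 in GENCODE M21. Its neighbour Foxo6os, a non-coding gene annotated on the opposite strand, had 33.2, 29.7 and 38.1 normalized counts in DMSO and 3.65, 1.84 and 6.42 in sorafenib. It passed the filter of 10 through the DMSO libraries alone, and its log2 change of −2.90 ± 0.39 (SE) ranged from −1.65 with a pseudocount of 10 to −3.25 without sorafenib replicate 3, so no weight is put on its test. Its annotated span, 120291350 to 120303892, does not overlap that of Foxo6.

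Foxo1, the FoxO factor most studied in insulin action, had 6734, 6184 and 6209 normalized counts in DMSO. In sorafenib it had 2628, 2844 and 2887, less in each library than in any DMSO library. The means were 6376 ± 310 and 2786 ± 139 (SD, n = 3 each), with a log2 change of −1.19 ± 0.05 (SE, limma adjusted p = 6.07e-08). A change as low or lower was found in 14.8% of genes tested. Foxo1 (ENSMUSG00000044167.7) lies on chromosome 3 at 52268336 to 52353221, plus strand, in the same annotation.

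Foxo4, on the X chromosome at 101254528 to 101260873 (ENSMUSG00000042903.9, plus strand), had 3842, 3804 and 3922 normalized counts in DMSO. In sorafenib it had 2311, 2355 and 2432. This gene had the smallest relative spread of the 4 in both groups, with a coefficient of variation of 1.56% in DMSO and 2.58% in sorafenib. The means were 3856 ± 59.99 and 2366 ± 61.1 (SD, n = 3 each), and the log2 change was −0.70 ± 0.04 (SE, limma adjusted p = 2.97e-07). A change as low or lower was found in 22.9% of genes tested.

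Foxo3, which in muscle is known to activate autophagy and proteolysis genes, had 5797, 6071 and 6046 normalized counts in DMSO. In sorafenib it had 8642, 7786 and 7698. The lowest sorafenib library stood above the highest DMSO library, and sorafenib replicate 1 was the highest of the 6. The means were 5971 ± 152 and 8042 ± 521 (SD, n = 3 each), with a log2 change of 0.43 ± 0.05 (SE, limma adjusted p = 3.96e-05). A change as high or higher was found in 29.8% of genes tested. Foxo3 (ENSMUSG00000048756.12) lies on chromosome 10 at 42181841 to 42276755, minus strand.

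**Figure D1:**
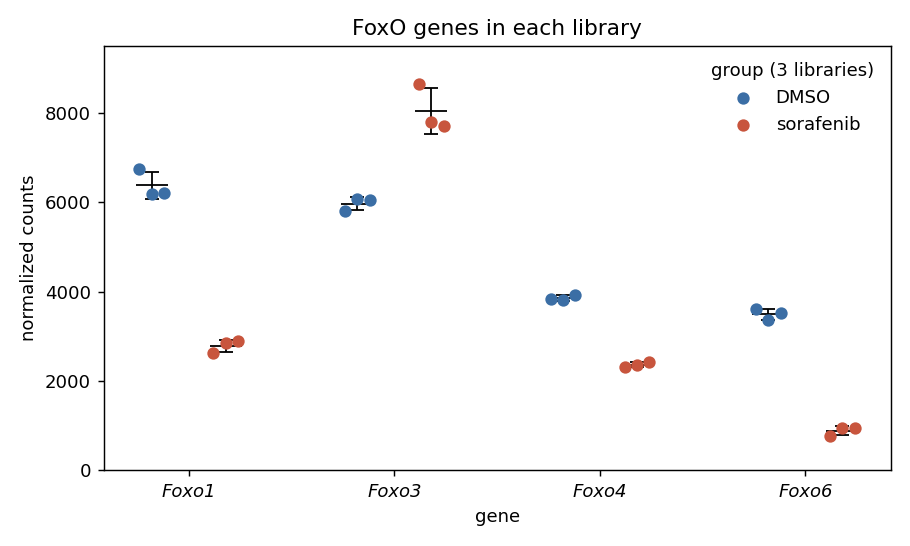
Normalized counts (linear axis) of the FoxO genes in each of the 3 DMSO and 3 sorafenib libraries; points are libraries, and black bars are the group mean with its SD. Foxo1, Foxo4 and Foxo6 lie lower in every sorafenib library, Foxo6 falling from a mean of 3488 to 886, and Foxo3 lies higher.

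In the authors' deposited table, made with DESeq2, the log2 fold changes were −1.97 for Foxo6, −1.19 for Foxo1, −0.70 for Foxo4 and 0.43 for Foxo3. The directions were those of the limma fit. Across 13 alternative settings of that fit, the log2 change ranged from −2.04 to −1.83 for Foxo6 and from −1.22 to −1.04 for Foxo1. It ranged from −0.77 to −0.55 for Foxo4 and from 0.37 to 0.58 for Foxo3. The highest limma adjusted p of any member in any of these settings was 0.000317. With libraries scaled to equal totals, the median log2 change over genes tested was 0.156 higher, and the changes below are relative to the authors' scaling.

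The FoxO coding sequences are most alike within the forkhead domain. The 60 coding bases below are the stretch, read in steps of whole codons, with the most bases shared between Foxo1 and the other 3 genes. They are shown because reads from such a stretch are the hardest to assign to 1 member. Capitals mark the positions at which the 4 genes are not all identical.
Foxo1: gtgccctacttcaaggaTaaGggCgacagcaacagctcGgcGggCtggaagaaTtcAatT
Foxo3: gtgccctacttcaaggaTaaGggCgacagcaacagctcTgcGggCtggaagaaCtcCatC
Foxo4: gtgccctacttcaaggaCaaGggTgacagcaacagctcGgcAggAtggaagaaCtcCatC
Foxo6: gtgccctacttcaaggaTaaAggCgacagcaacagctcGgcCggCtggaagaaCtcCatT
All 4 genes had the same base at 51 of these 60 positions. The stretch covers coding bases 571 to 630 of Foxo1 and 364 to 423 of Foxo6, from the GENCODE M21 transcripts with the longest coding sequence. The longest run of identical bases between any 2 of these full transcripts was 38 bases, between Foxo1 and Foxo3, and the other 5 pairs shared at most 17 to 21 bases. The length of the reads was not known.

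The composition of the FoxO messenger RNAs changed with treatment. To compare levels between genes, normalized counts were divided by the length of each gene's merged exons in GENCODE M21, 8.67 kb for Foxo1, 7.57 kb for Foxo3, 3.49 kb for Foxo4 and 2.62 kb for Foxo6. Per kb, the order of levels in DMSO was Foxo6 (1334 ± 47.9), Foxo4 (1106 ± 17.2), Foxo3 (789 ± 20.0) and Foxo1 (736 ± 35.8; SD, n = 3 each). Foxo3 and Foxo1 were neighbours whose libraries overlapped. In sorafenib the order of the same quantity was Foxo3 (1062 ± 68.8), Foxo4 (679 ± 17.5), Foxo6 (339 ± 41.3) and Foxo1 (322 ± 16.0), and the last pair overlapped. Foxo6 thus moved from the highest level per kb to near the lowest, and Foxo3 from the third to the highest.

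As a share of the 4 genes' summed counts per kb, Foxo6 made up 34.2%, 33.0% and 33.7% in the DMSO libraries and 12.1%, 15.2% and 15.0% in the sorafenib libraries. Foxo3 made up 19.0%, 20.6% and 20.1% in DMSO and 47.6%, 42.9% and 42.2% in sorafenib. Foxo1 held 18.6% ± 0.69 in DMSO and 13.4% ± 0.65 in sorafenib (SD, n = 3 each). For each of these 3 genes the shares did not overlap between groups, and the exact two-sided permutation test gave p = 0.1, the smallest that 3 against 3 libraries allow. Foxo4 held 27.9% ± 0.44 in DMSO and 28.3% ± 0.67 in sorafenib, with overlapping groups (exact permutation test, two-sided p = 0.5, n = 3 each). This difference in share was smaller than the spread between libraries of either group. The sum of the 4 genes fell from 3965 ± 68.2 to 2402 ± 5.92 counts per kb.

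**Figure D2:**
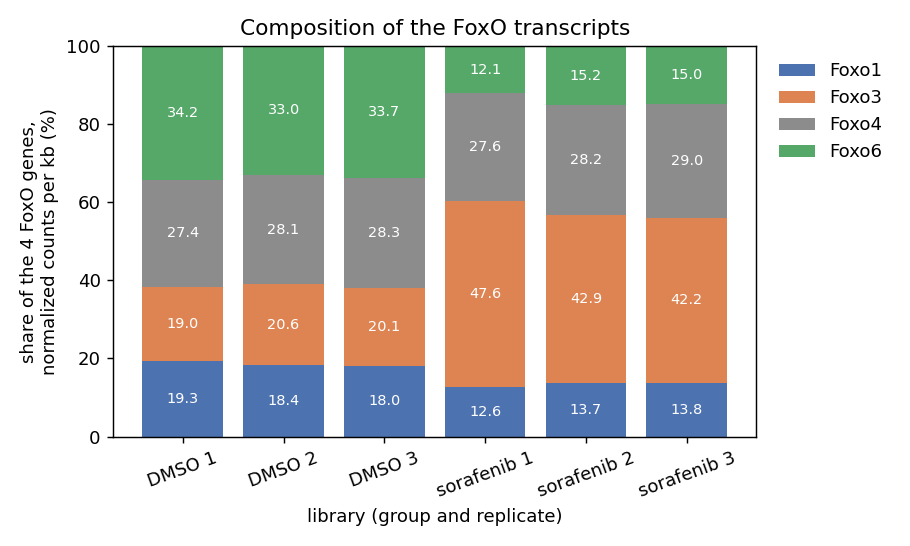
Share of each FoxO gene in the summed normalized counts per kb of the 4 genes, in percent, for each of the 6 libraries (stacked bars, with the share printed inside). Foxo3 occupies 42.2% to 47.6% of the sorafenib bars against 19.0% to 20.6% of the DMSO bars, Foxo6 shrinks, and Foxo4 stays between 27.4% and 29.0%.

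Ratios between members within a library do not depend on how libraries were scaled. There were 6 pairs, and in each the 3 sorafenib ratios lay apart from the 3 DMSO ratios. The log2 ratio of Foxo3 to Foxo6 was 0.69, 0.86 and 0.78 in DMSO and 3.50, 3.03 and 3.03 in sorafenib, a difference of 2.41 ± 0.17 (SE). The log2 ratio of Foxo1 to Foxo3 was 0.22, 0.03 and 0.04 in DMSO and −1.72, −1.45 and −1.41 in sorafenib, a difference of −1.62 ± 0.11 (SE). Foxo3 therefore gained on both. The closest pair was Foxo1 and Foxo4, whose log2 ratio differed by −0.49 ± 0.05 (SE) between the groups. Each of the 6 pairs had p = 0.1 in the exact two-sided permutation test, the smallest possible with 3 libraries a group, and 0.1 after adjustment over the 6 pairs.

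Markers of the labelled cell type, myotubes, were expressed in both groups. All 12 myotube marker genes, such as embryonic myosin Myh3 and myogenin (Myog), passed the filter, and all 12 were lower in sorafenib. The DMSO libraries held 2104530 to 2273103 normalized counts of these genes in all, and the sorafenib libraries 565778 to 681148. In such bulk samples, fewer myotubes and less RNA per myotube cannot be told apart. Of the 8 markers of unfused myoblasts, 7 passed the filter, 3 higher and 4 lower, and they summed to 53957 to 55638 in the DMSO libraries and 40866 to 42567 in those with sorafenib. The 4 that fell were the cadherin gene Cdh15, from a mean of 33664 to 12040, Mki67, from 6092 to 2099, Sdc4 and Pax7. The myoblast regulator Myf5 rose from 933 ± 45.2 to 17590 ± 132 (SD, n = 3 each), and Cd34 and Vcam1 also rose. Macrophage markers summed to 50.1 to 64.1 in DMSO and 367 to 456 in sorafenib, nearly all from Cd68, the 1 of 7 that passed the filter. Of 7 endothelial markers, 3 passed, and the list summed to 57.6 to 74.1 in DMSO and 44.5 to 57.9 in sorafenib. Of 7 adipocyte markers, 1 passed, with sums of 272 to 317 and 759 to 798. Of 6 osteoblast markers, 4 passed, with sums of 2838 to 3548 and 3355 to 4452; Runx2 rose, while Alpl, Dmp1 and Sp7 fell, and the median log2 change was −1.94. The macrophage, endothelial and osteoblast lists each had 1 marker listed at 0 in all libraries.

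Set against the summed myotube markers, the members fell into separate positions. Per 1000 myotube marker counts, Foxo6 had 1.64, 1.59 and 1.54 in DMSO and 1.35, 1.43 and 1.38 in sorafenib. It thus fell somewhat more than the summed markers, and the groups did not overlap. Foxo1 had 3.06, 2.94 and 2.73 in DMSO and 4.65, 4.28 and 4.24 in sorafenib. Foxo4 had 1.74, 1.81 and 1.73 in DMSO and 4.08, 3.54 and 3.57 in sorafenib. Foxo3 had 2.63, 2.88 and 2.66 in DMSO and 15.3, 11.7 and 11.3 in sorafenib. Foxo1 and Foxo4, which fell in normalized counts, were thus higher relative to these markers. Any gene that fell less than the summed markers is higher on this scale. A change as low as that of Foxo1 or lower was found in 14.8% of genes tested, so most genes are higher on it. The part of the marker change in the members' changes was not tested.

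**Figure D3:**
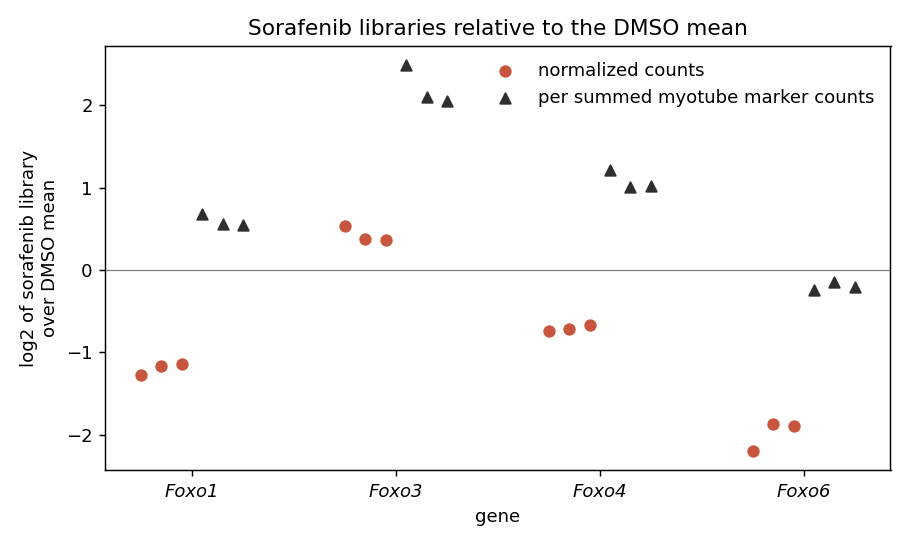
Log2 of each sorafenib library over the DMSO mean for the FoxO genes, from normalized counts (red circles) and from counts per summed myotube marker counts (black triangles); the grey line marks no change. Foxo6 lies near the line, somewhat below it, only on the marker scale, where Foxo1, Foxo3 and Foxo4 lie above it.

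The genes whose profile was most like that of each member were found by the root mean square difference, over the 6 libraries, of log2 values taken relative to the DMSO mean. For Foxo6 they were Casq2 (calsequestrin 2, a calcium-binding protein of the sarcoplasmic reticulum, 0.027), Egln3 (a prolyl hydroxylase of the oxygen-sensing pathway, 0.031) and Mylpf (fast myosin light chain, 0.034). Mylpf is also 1 of the 12 myotube markers. For Foxo1 they were Fig4 (a phosphoinositide phosphatase, 0.023), Tmsb10 (thymosin beta 10, which binds actin, 0.026) and Pold4 (a subunit of DNA polymerase delta, 0.030). For Foxo4 they were Mrpl17 (a mitochondrial ribosomal protein, 0.014), Mfn2 (mitofusin 2, which fuses mitochondria, 0.016) and Tax1bp3 (0.020). For Foxo3 they were Lpin2 (a phosphatidate phosphatase, 0.012), Washc1 (a subunit of the WASH complex, 0.019) and Rad54l2 (a helicase-like protein, 0.021). With 2 groups and 6 libraries, many genes share such a profile.

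Promoter sequence is shown for Foxo1, which fell, and Foxo3, which rose. Those of Foxo4 and Foxo6 are not shown. The 250 bases before each start are from RefSeq on GRCm38.p6. For Foxo3 the RefSeq start lies inside the GENCODE M21 span given above, so part of the printed bases falls within that span. Capitals mark CCAAT on either strand, the element known to bind NF-Y. Foxo1 is at chr3:52268087-52268336 on the plus strand and Foxo3 at chr10:42276696-42276945 on the minus strand.
Foxo1: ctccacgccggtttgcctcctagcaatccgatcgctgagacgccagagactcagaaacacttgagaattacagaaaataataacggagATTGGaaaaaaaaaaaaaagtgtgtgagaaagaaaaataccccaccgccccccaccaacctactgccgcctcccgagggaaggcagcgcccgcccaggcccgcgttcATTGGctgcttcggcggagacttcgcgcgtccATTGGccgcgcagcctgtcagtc
Foxo3: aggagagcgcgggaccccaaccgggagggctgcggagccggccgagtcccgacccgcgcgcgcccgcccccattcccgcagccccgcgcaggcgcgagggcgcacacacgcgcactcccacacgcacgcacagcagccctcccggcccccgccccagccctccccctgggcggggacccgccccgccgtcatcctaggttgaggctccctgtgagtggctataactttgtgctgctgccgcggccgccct
The Foxo1 window of 300 bases, which runs 50 bases past the start, held 3 matches to CCAAT, all on the reverse strand, and that of Foxo3 held 0. At least 1 match was found in 37.4% of the 32851 promoters and 2 or more in 11.5%. CCAAT was not a planned motif, and a link between its matches and the direction of change was not tested. The GC content of the window was 61.3% for Foxo1 and 75.0% for Foxo3. Neither window held GTAAACA, an element known to bind FoxO proteins, on either strand. That element was found in 3.65% of all promoters.

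The counts for the lists that follow stand beside 38.8% higher and 37.8% lower among all genes tested. Of 28 genes of insulin, IGF, PI3K and AKT signalling, 27 passed the filter, 15 fell, 5 rose and 7 did not pass the test. The median log2 change was −0.25, against 0.02 over all genes tested. The ligand Igf1 had 489, 774 and 682 normalized counts in DMSO and 58.9, 29.0 and 11.8 in sorafenib, with every sorafenib library far below the DMSO libraries. Its receptor Igf1r fell (−0.48 ± 0.06), whereas the insulin receptor Insr rose (0.45 ± 0.05), both as log2 changes with their SE. The adaptor Irs2 had 1397, 1714 and 1620 in DMSO and 6183, 5586 and 5303 in sorafenib, a log2 change of 1.85 ± 0.08.

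The kinase genes Akt1 and Akt2 fell, with log2 changes of −0.63 ± 0.04 and −0.99 ± 0.04 (SE). The related kinase gene Sgk1 changed by −0.25 ± 0.05, which no longer passed with equal totals (−0.09, limma adjusted p = 0.137). Pik3r1, a regulatory subunit of PI3K, fell by 0.65 on the log2 scale. Inpp4b, a lipid phosphatase of this pathway, fell (−2.11 ± 0.04; log2, SE). Trib3, a pseudokinase that binds AKT, had 1160, 965 and 877 normalized counts in DMSO and 20311, 19580 and 19862 in sorafenib, a log2 change of 4.32 ± 0.09 (SE, limma adjusted p = 6.1e-09). Trib3 and Irs2 were the only members of this list to rise at least 2-fold, and 5 members fell at least 2-fold. These 5 include the ligand Igf1 and the kinase gene Sgk3, but also Inpp4b, Inpp5d and Grb10, which are known to oppose this signalling, so the count does not give a direction for the pathway.

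The list of stress and energy kinases that act on FoxO proteins held 19 genes, some of them for regulatory subunits. Of these, 10 fell, 6 rose and 3 did not pass, but 8 fell and 8 rose with equal totals. Prkaa2, a catalytic subunit of the energy sensor AMPK, fell most, from 3585, 3136 and 3534 to 897, 1021 and 1007 normalized counts. Csnk1a1, a casein kinase, fell by 0.74 on the log2 scale. Ikbkb and Chuk, kinases of the NF-kappaB pathway, rose by 0.42 ± 0.04 and 0.37 ± 0.05 (log2, SE). Of the 7 genes for 14-3-3 proteins, 4 fell and 2 rose, against 3 and 3 with equal totals, and 3 and 4 with quantile normalization. Ywhae and Ywhaz fell by 0.72 and 0.52 on the log2 scale, Ywhaq rose by 0.38, and Sfn rose from 36.1, 33.3 and 44.7 to 364, 347 and 322 normalized counts.

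Of 23 enzymes and cofactors that modify FoxO proteins, 13 rose, 9 fell and 1 did not pass, with a median log2 change of 0.14 against 0.02 over all genes tested. Hdac4, a class IIa histone deacetylase, rose by 1.16 ± 0.06 and its relative Hdac5 fell by 1.02 on the log2 scale. The deacetylase gene Sirt1 rose by 0.25 ± 0.05, and Skp2, a ubiquitin ligase subunit known to act on FoxO1, rose by 0.80 ± 0.05 (log2, SE).

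Genes known as FoxO targets went both ways. The lists also hold genes that FoxO proteins are known to repress, such as Ccnd1 and Ccnd2, so the counts do not give a direction for FoxO activity. Of 88 genes on 6 target lists, 81 passed the filter, 39 fell, 30 rose and 12 did not pass, but 36 fell and 39 rose with equal totals. The median log2 change was −0.06, against 0.02 over all genes tested, and 0.09 with equal totals, against 0.17. The ubiquitin ligase genes were lower: Fbxo32 had 6484, 7115 and 7354 normalized counts in DMSO and 2407, 2576 and 2579 in sorafenib. Trim63 had 5071, 4560 and 4670 in DMSO and 867, 1111 and 1128 in sorafenib. In the proteolysis list of 12 genes, 6 fell and 5 rose, against 5 and 6 with equal totals. Among those that rose were the cathepsin gene Ctsl (0.50 ± 0.03) and the ligase gene Traf6 (0.41 ± 0.04; log2, SE). Fbxo32 and Trim63 were the only members of that list to fall at least 2-fold.

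Of 20 autophagy and mitophagy targets, 11 fell, 5 rose and 4 did not pass. Pink1, a kinase that marks damaged mitochondria, fell by 1.45 on the log2 scale and Tfeb, a regulator of lysosomal genes, by 1.23. Bnip3, a mitophagy receptor, had 3758, 4163 and 5196 normalized counts in DMSO and 2452, 2494 and 2691 in sorafenib. Map1lc3b fell by only 0.26, whereas its relative Gabarapl1, also an autophagosome protein, rose from 6266, 6464 and 6710 to 11165, 10395 and 10335. Sqstm1, the autophagy receptor p62, rose by 1.23 ± 0.05 (log2, SE). Receptors and lipid-conjugated proteins of this list therefore did not share a direction.

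Of 13 cell cycle targets, 12 passed the filter, 6 fell and 5 rose. The inhibitor Cdkn1a (p21) fell from 162755, 153867 and 157948 to 50674, 55791 and 54879 normalized counts, while Cdkn1b (p27), a well-known FoxO target, rose by 0.31 ± 0.04 (log2, SE). Ccng2, another target linked to arrest, fell by 0.86, and the mitotic kinase gene Plk1 by 1.61. The cyclins Ccnd1 and Ccnd2, which FoxO proteins are known to repress, rose by 1.52 ± 0.07 and 3.51 ± 0.07. Of 10 cell death targets, 8 passed the filter, 4 fell and 2 rose, but 3 fell and 4 rose with equal totals. Bcl2l11 (BIM) rose by 0.57 ± 0.06, Trib3 is given above, and Pmaip1 (NOXA) fell by 1.28.

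Of 10 targets in oxidant defence, 6 fell and 4 rose. The sestrins were divided, with Sesn2 higher by 2.41 ± 0.04 on the log2 scale, Sesn1 lower (−1.17 ± 0.04) and Sesn3 lower (−0.85 ± 0.10; SE). Catalase (Cat) rose by 0.89 ± 0.04, and mitochondrial superoxide dismutase (Sod2) fell by 0.37. Of 24 metabolic targets, 20 passed the filter, 9 rose and 7 fell. Pdk4, a kinase that inhibits pyruvate dehydrogenase, had 2543, 3000 and 2689 normalized counts in DMSO and 771, 803 and 850 in sorafenib. The fatty acid transporter gene Cd36 fell by 3.36 and Depp1, a FoxO-induced gene of fasting, by 2.81 on the log2 scale. Lipoprotein lipase (Lpl) had 149, 144 and 133 in DMSO and 3017, 2212 and 2113 in sorafenib. Klf15, a regulator of amino acid breakdown, was at 4.61, 8.98 and 1.59 in DMSO, below the filter there, and at 252, 258 and 247 in sorafenib.

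**Figure D4:**
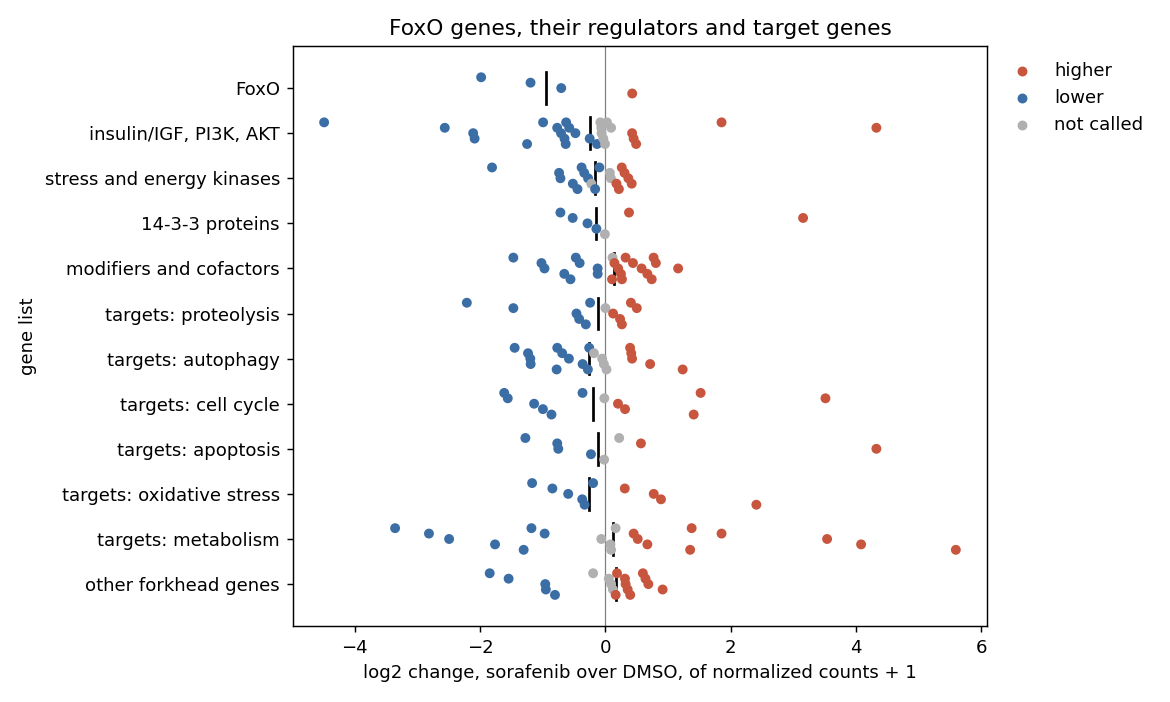
Log2 change, sorafenib over DMSO, of each tested gene in the FoxO family and 11 gene lists (rows); points are genes, coloured by the limma call, and black bars are medians. The FoxO points run from −1.98 to 0.43, and each target list holds both higher and lower genes.

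The FoxO element GTAAACA, read on either strand, was looked for in the promoters of the target genes. Of the 81 tested targets, 64 had a promoter in the RefSeq table, and 7 of these held a match in the 300 bases, 10.9% against 4.05% of all genes. The 4.05% covers all 27025 genes with a promoter, whether or not they passed the filter. Whether genes were listed as targets because of this element was not examined, so no weight is put on the difference. The matches are shown with 11 bases on each side, the element in capitals, because they set the known element beside the measured change.
Trim63 at chr4:134314915-134314943, plus strand: cagtctgttctTGTTTACgacccccacgg
Sesn1 at chr10:41810585-41810613, plus strand: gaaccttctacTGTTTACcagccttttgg
Bcl2l11 at chr2:128125800-128125828, plus strand: aagacactaggGTAAACAcgccggggtgg
Btg1 at chr10:96616786-96616814, plus strand: gggggtttattTGTTTACaagcagattac
Bbc3 at chr7:16310083-16310111, plus strand: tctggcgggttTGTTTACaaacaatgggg
Mxi1 at chr19:53329453-53329481, plus strand: cgcgcggagaaGTAAACAaaccgcgcgcg
Txnip at chr3:96557825-96557853, plus strand: ttggaggcctgGTAAACAagggccaagta
Of these 7 genes, Trim63 and Sesn1 fell (−2.21 ± 0.10 and −1.17 ± 0.04 on the log2 scale, SE), and Bcl2l11 and the antiproliferative gene Btg1 rose (0.57 ± 0.06 and 0.20 ± 0.05). Bbc3, Mxi1 and Txnip did not pass the test, at 0.22, 0.08 and 0.16. The element of Trim63 begins 194 bases before the gene's start, and that of Sesn1 at base 23 after it. Genes with this element therefore did not share a direction.

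Of 41 other forkhead genes, 19 passed the filter, 10 rose, 5 fell and 4 did not pass, with a median log2 change of 0.16. Foxq1 had 551, 527 and 507 normalized counts in DMSO and 149, 144 and 146 in sorafenib, and Foxl1 fell by 0.96 on the log2 scale. Foxa3, at 24.4, 25.0 and 34.7 in DMSO and 8.22, 8.28 and 10.1 in sorafenib, passed the filter of 10 only through the DMSO libraries. Foxn2 rose by 0.91 ± 0.05 and Foxc2 by 0.69 ± 0.09 (log2, SE). Foxk2, known in mouse muscle cells to repress autophagy genes, rose by 0.32 ± 0.05. For its relative Foxk1 the change was 0.12 ± 0.06, short of the threshold (limma adjusted p = 0.0905), but it passed with equal totals (0.28) and without sorafenib replicate 3 (0.18).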

How the data were processed

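The authors deposited, per the file headers, a signal value for each gene and library, a normalized count from DESeq2. For each gene the deposited table also gives the authors' log2 fold change, its error, the Wald score, and the p-value before and after adjustment. The submitters' processing notes name bcl2fastq and the build GRCm38.p6; the column names end in quant sf, as Salmon names its output, but no source used here states the quantifier or the read length. Positions printed are those of GENCODE M21 (GRCm38), found through the gene identifiers, because the positions in the deposited table are not those of GRCm38.

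Normalized totals were 78.0 to 78.9 M in DMSO and 70.2 to 70.6 M in sorafenib. The value of a single read, estimated from the most frequent low value, put depth at roughly 65.5 to 80.2 M reads. Only 55.2% to 64.5% of low values were whole multiples of it within 0.02, so no count model was fitted.

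Differences were tested with limma 3.58.1 under R 4.3.3 (trend, robust) on log2(normalized count + 1), for genes with at least 10 in at least 3 libraries, with Benjamini-Hochberg adjustment over all genes tested. Folds on this scale understate changes of low genes. Ratios and shares were compared with an exact permutation test in scipy 1.17.1. Members and lists were chosen with earlier results of these data known. Named from each list were the 2 largest called rises and falls with a mean of at least 100, 23 genes chosen whatever their values, of which some are not reported here, and the 3 genes most like each member. Foxa3, Btg1, Bbc3, Mxi1, Txnip, Sgk3, Inpp5d, Grb10 and the single cell type markers were named after their values were seen. No per-sample column was left unused.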

Additional observations from a re-analysis of the deposited data

How the results depend on the processing

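The limma fit was repeated after quantile normalization, with equal totals, with pseudocounts of 0.1 and 10, unfiltered, with the minimum raised to 50, with a replicate block, and leaving out 1 library at a time. The 4 FoxO changes kept their direction and passed the threshold in all 13 of these. The differences between members kept their direction with both pseudocounts and without each library. With quantile normalization 4 genes for 14-3-3 proteins were higher, against 2, and with equal totals 4 cell death targets were higher, against 2. The other list counts stayed within 1.5 times. The replicate block gave 12635 called genes against 12750 and changed no call of a FoxO gene. Deviations from group means of same-numbered libraries correlated at 0.022 to 0.077 across genes. Those of other pairs correlated at −0.069 to 0.025, the highest being DMSO replicate 3 with sorafenib replicate 2. These correlations are too weak to say whether same-numbered libraries shared an experiment. In the column names, library numbers alternate between DMSO and sorafenib in replicate order. No label states that this order reflects shared experiments. The gene length used for levels per kb was varied after the data were seen: with the longest coding transcript, Foxo3 held 45.5%, Foxo4 29.0%, Foxo6 13.1% and Foxo1 12.4% of the FoxO total in sorafenib, which for Foxo1 and Foxo4 is more than 1 SD from the values above. Planned count models were not run, since whole reads were not recovered. With 3 libraries a group, a permutation test cannot pass the threshold.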

Other observations

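Fcor, which encodes a corepressor of Foxo1 described in mouse fat tissue, did not reach the filter, with 2.91, 2.36 and 1.11 normalized counts in DMSO and 2.75, 0.93 and 0.93 in sorafenib. Of the 41 other forkhead genes, 22 did not reach it either.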
